A study of Mus musculus with 12 samples.

Results

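The genes described here are 9 genes of brown and beige fat, namely Ucp1, Cidea, Ppargc1a, Dio2, Elovl3, Prdm16, Kcnk3, Otop1 and Esrra, each taken by its symbol from the 55281 genes counted in bulk RNA sequencing of mouse gonadal white adipose tissue (GWAT). All 9 were among the 18427 genes with enough counts to be tested. The mice carried floxed Hoip (Rnf31) alleles, Hoip fl/fl. HoipA-KO mice were AdipoQ.Cre+, and the WT mice were AdipoQ.Cre- littermates with the same floxed alleles and no Cre. HOIP is the catalytic subunit of the complex that assembles linear ubiquitin chains, and the Adiponectin promoter drives Cre in mature adipocytes, so the other cells of the tissue kept the gene. The mice were males of 22 to 24 weeks. From 6 weeks of age they ate a control diet (CD, 14% fat in the labels) or a high-fat diet (HFD, 60% fat) for 16 weeks. The tissue of 3 mice was pooled for each library, and each of the 4 groups (WT CD, WT HFD, HoipA-KO CD and HoipA-KO HFD) had 3 libraries. Nothing states that the pools of a group came from separate litters or days, so p-values measure the spread between pools.

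Brown and beige adipocytes burn fuel to make heat. Cold activates sympathetic nerves, noradrenaline binds beta-adrenergic receptors, and the cAMP that follows releases fatty acids and switches on a set of genes. UCP1 lets protons back across the inner mitochondrial membrane without making ATP. GWAT is a white depot in which few adipocytes become beige, so low levels of these genes are its usual state. CIDEA sits on lipid droplets and makes them fuse, DIO2 turns thyroid hormone into its active form, and ELOVL3 lengthens fatty acids. PGC-1α, encoded by Ppargc1a, and its partner ERRα, encoded by Esrra, drive mitochondrial genes, while PRDM16 holds the brown cell identity. Kcnk3 encodes a potassium channel and Otop1 a proton channel, and both are enriched in brown over white fat.

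Between 30513500 and 60540260 estimated counts per library lay on genes, and 3 counts, taken here as the floor, were 0.0533 to 0.0996 CPM (counts scaled to the library total, normalized between libraries by TMM). The comparisons use 11 libraries, without WT CD replicate 3, and values over 12 libraries are named as such. Values given without WT CD replicate 1 or 2 leave that one out as well, so they compare against 1 WT CD library. Each gene has 1 estimate of spread shared by the 4 groups. The choice of WT CD libraries therefore also changes SE and adjusted p on HFD, although no CD library is compared there. Replicates of WT HFD, HoipA-KO CD and HoipA-KO HFD correlated across genes with a Pearson's r of log2 levels from 0.971 to 0.993. In WT CD, replicates 1 and 2 reached 0.907, whereas replicate 3 reached 0.785 with the first and 0.794 with the other. WT CD replicate 3 held transcripts of male germ cells, with 8 germ cell genes summing to 9304 CPM against 18.8 and 443 in the other WT CD libraries and at most 4.40 elsewhere. WT CD replicate 2 held transcripts of the epididymis, an organ that lies against this fat pad, with 10 epididymal genes summing to 15732 CPM. HoipA-KO HFD replicate 1 followed with 1317 CPM, and no other library was above 109. Rnf31 had 12.8 to 21.2 CPM in WT and 17.7 to 22.5 CPM in HoipA-KO libraries, and whole tissue and whole transcripts cannot show a deletion in adipocytes.

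On CD, 5 of the 9 genes differed between HoipA-KO and WT. Otop1 and Dio2 were higher, while Cidea, Ppargc1a and Ucp1 were lower, the last of these resting on 1 WT library. Of all genes tested, 37.7% passed the same threshold, 18.9% higher and 18.8% lower (a Benjamini-Hochberg adjusted p below 0.05 in the quasi-likelihood test of edgeR, the source of every adjusted p given here). On HFD, 2 of the 9 were lower in HoipA-KO, Cidea and Prdm16, where 11.8% of all genes passed, 4.2% higher and 7.62% lower. HFD against CD moved 1 of the 9 in WT mice, Otop1, which rose, with 14.8% of all genes passing, 9.35% higher and 5.47% lower. In HoipA-KO mice the same diet step moved none of the 9 and 0% of all genes, with 415 genes at an unadjusted p under 0.05 and 7 genes called by DESeq2. The change of the genotype effect with diet, tested as an interaction, passed for 1 of the 9, again Otop1, and for 3.91% of all genes. The 2 genotype comparisons share no library, while HoipA-KO against WT on CD and HFD against CD in WT share the WT CD libraries.

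**Figure D1:**
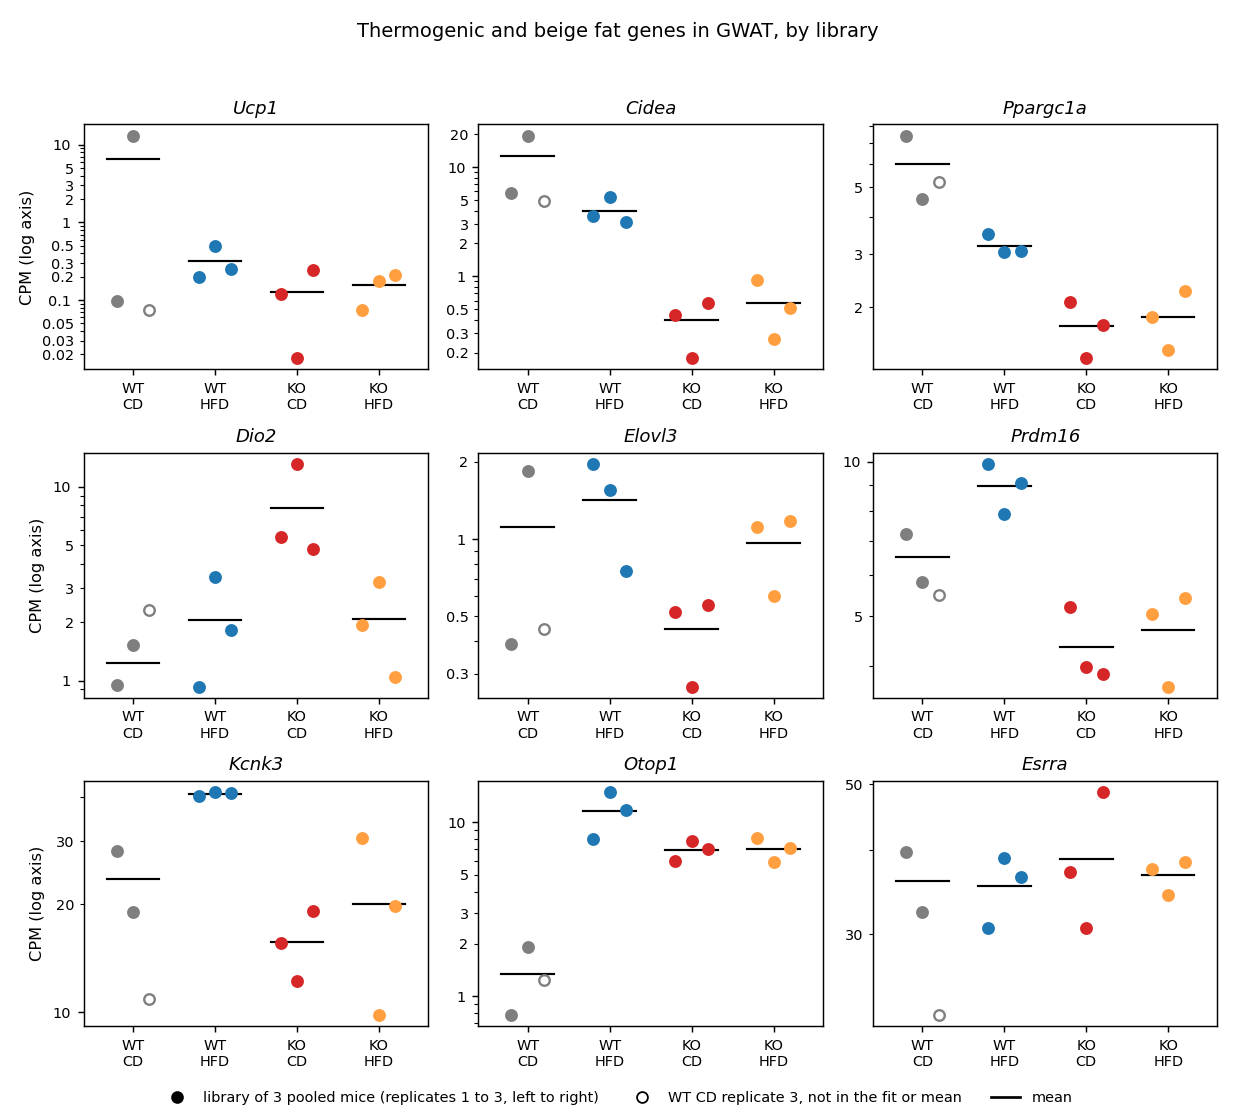
CPM of each of the 9 genes in every library on a log axis, by group (KO stands for HoipA-KO), with 1 point per library of 3 pooled mice, open for WT CD replicate 3, and a bar at the mean of the libraries in the fit. Otop1 is lowest in the 3 WT CD libraries, Cidea is below 1 CPM in all 6 HoipA-KO libraries, and Ucp1 stands out in 1 WT CD library at 13.2 CPM.

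Otop1, the proton channel otopetrin 1, had its lowest levels in WT CD. The WT CD libraries had 0.780, 1.91 and 1.24 CPM (replicates 1 to 3, the order kept below), and the HoipA-KO CD libraries had 6.01, 7.84 and 7.04 CPM. In WT HFD it had 8.04, 14.9 and 11.8 CPM, and in HoipA-KO HFD 8.15, 5.93 and 7.08 CPM. Every library of the other 3 groups was above every WT CD library, and the HoipA-KO groups did not separate from each other. Otop1 was 5.33 times higher in HoipA-KO than in WT on CD (log2 fold change 2.41, SE 0.41, adjusted p = 0.00201) and 8.66 times higher in WT mice on HFD than on CD (3.11, SE 0.42, adjusted p = 0.00617). On HFD the HoipA-KO libraries averaged 7.05 ± 1.11 CPM (SD, n = 3) against 11.6 ± 3.43 CPM in WT, with a log2 fold change of -0.70 (SE 0.33, adjusted p = 0.177). The genotype effect on HFD was lower than that on CD by 3.12 on the log2 scale (SE 0.52, adjusted p = 0.0256). Over 12 libraries the values were 2.41 for genotype on CD (adjusted p = 0.00114), 3.14 for diet in WT (adjusted p = 0.00158) and -3.12 for the interaction (adjusted p = 0.0137).

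Dio2, the deiodinase that activates thyroid hormone inside the cell and a known target of cAMP, was the other gene that was higher in HoipA-KO mice on CD. WT CD had 0.950, 1.52 and 2.32 CPM, and HoipA-KO CD had 5.51, 13.1 and 4.79 CPM. On HFD it had 0.930, 3.42 and 1.82 CPM in WT and 1.93, 3.24 and 1.05 CPM in HoipA-KO mice. The HoipA-KO CD libraries were above all others, and the remaining groups overlapped. Its log2 fold change on CD was 2.71 (SE 0.74, adjusted p = 0.0177), which is 6.55 times, and 2.28 over 12 libraries (adjusted p = 0.0209). Without WT CD replicate 1 or without HoipA-KO CD replicate 2 it no longer passed, with an adjusted p of at most 0.0810. On HFD the log2 fold change was 0.03 (SE 0.59, adjusted p = 0.981). HFD against CD in HoipA-KO mice gave -1.93 (SE 0.61, adjusted p = 1, unadjusted p = 0.0102), with the 3 HFD libraries below the 3 CD libraries. The interaction did not pass for Dio2 (-2.69, SE 0.92, adjusted p = 0.127).

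The cAMP signal of noradrenaline reaches genes through factors of the CREB family, which bind a short element in promoters. Of the 9 genes, 6 have an entry in RefSeq's promoter table for GRCm38.p6. The 250 bases before the start are printed for the 3 of these that passed the test on CD on values from more than 1 library, with matches to the cAMP response element TGACGTCA or its half-site TGACG, on either strand, in capitals.
Dio2, chr12:90739039-90739288, minus strand: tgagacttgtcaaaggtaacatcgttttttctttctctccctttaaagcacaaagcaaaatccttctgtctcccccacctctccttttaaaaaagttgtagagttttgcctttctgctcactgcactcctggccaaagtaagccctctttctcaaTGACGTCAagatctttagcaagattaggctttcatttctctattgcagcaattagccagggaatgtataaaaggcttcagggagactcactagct
Ppargc1a, chr5:51567726-51567975, minus strand: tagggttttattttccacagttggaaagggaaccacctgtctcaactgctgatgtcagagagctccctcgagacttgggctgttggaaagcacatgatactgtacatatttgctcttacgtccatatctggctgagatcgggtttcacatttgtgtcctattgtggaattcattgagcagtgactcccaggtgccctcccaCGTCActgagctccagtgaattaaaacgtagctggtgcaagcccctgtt
Otop1, chr5:38277154-38277403, plus strand: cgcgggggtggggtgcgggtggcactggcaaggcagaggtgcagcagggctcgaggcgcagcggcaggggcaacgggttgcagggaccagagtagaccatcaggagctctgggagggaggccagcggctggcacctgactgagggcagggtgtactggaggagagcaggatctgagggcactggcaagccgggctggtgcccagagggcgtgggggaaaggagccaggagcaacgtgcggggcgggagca
Dio2 held the whole element, 95 bases before its start, a motif that 1.55% of 32851 mouse promoters of this length hold on either strand. The half-sites at its ends lie within it. Ppargc1a held 1 half-site, read on the other strand 49 bases before its start, as 17.8% of promoters do. The Otop1 window held neither. Outside these 3, the Ucp1 window held a half-site 147 bases before its start, and Prdm16 and Esrra held none. The element TCAAGGTCA that ERR proteins bind was in none of the 6 windows and in 0.387% of all promoters, and the shorter AAGGTCA was in none of the 6 and in 4.08%. These are matches of letters only. RefSeq's starts of Dio2 and Otop1 are not those of the annotation used for positions, so other promoters of these genes are not covered.

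**Figure D2:**
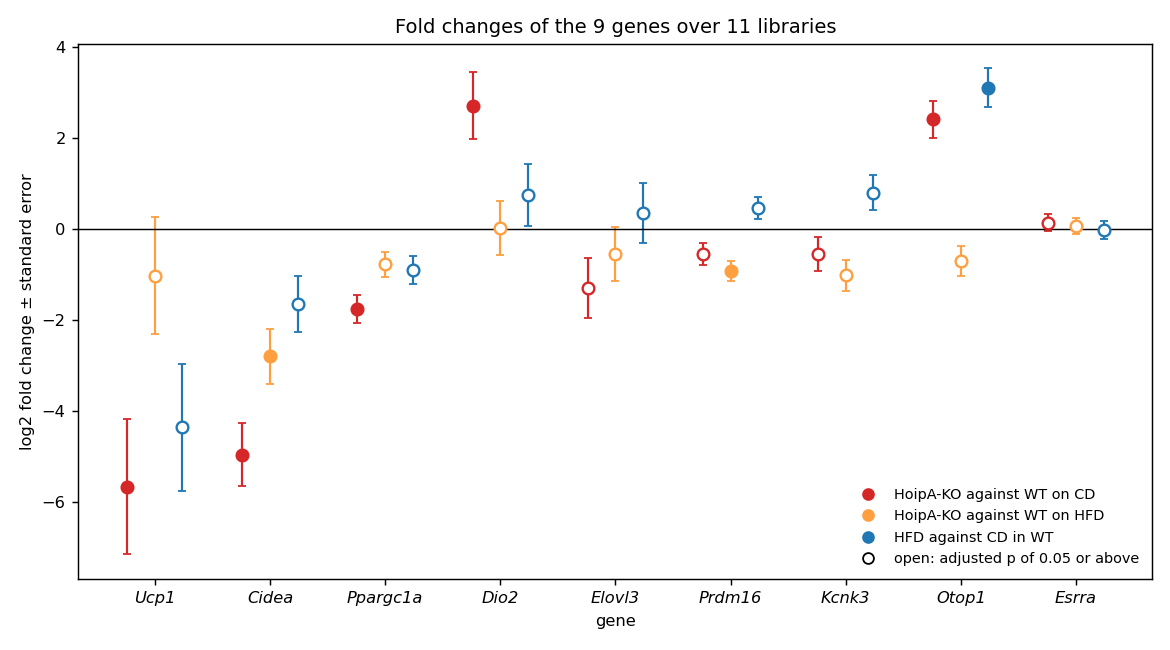
Log2 fold change with its standard error for each of the 9 genes in 3 comparisons over 11 libraries, filled where the adjusted p was under 0.05 and open otherwise. Otop1 is filled for genotype on CD (2.41) and for diet in WT (3.11), Cidea is filled for genotype on both diets (-4.95 and -2.79), and Esrra lies at 0 within its standard error in each.

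Cidea, the lipid droplet protein that marks brown and beige fat and is also found in white fat, was lower in HoipA-KO mice on both diets. WT libraries had 5.75, 19.5 and 4.88 CPM on CD and 3.55, 5.32 and 3.14 CPM on HFD. In HoipA-KO libraries it had 0.441, 0.178 and 0.573 CPM on CD and 0.929, 0.266 and 0.516 CPM on HFD. Every HoipA-KO library was below every WT library, and in WT the diets overlapped once WT CD replicate 3 was counted. Cidea was 30.9 times lower on CD (log2 fold change -4.95, SE 0.69, adjusted p = 0.000867) and 6.94 times lower on HFD (-2.79, SE 0.61, adjusted p = 0.0238). The call on CD held over 12 libraries (-4.65, adjusted p = 0.00145), and the call on HFD did not hold over 12 libraries (adjusted p = 0.0559). Without WT CD replicate 2, the library with the highest value, the log2 fold change on CD was -3.82, with replicate 1 as the only WT CD library.

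Ppargc1a, the coactivator that switches on mitochondrial genes, was lower in HoipA-KO mice on CD. WT libraries had 7.43, 4.56 and 5.21 CPM on CD, and 3.49, 3.04 and 3.08 CPM on HFD. HoipA-KO libraries had 2.08, 1.35 and 1.74 CPM on CD and 1.86, 1.44 and 2.26 CPM on HFD. WT CD was highest in every library, WT HFD came next, and the HoipA-KO groups lay below both and overlapped each other. It was 3.38 times lower in HoipA-KO on CD (log2 fold change -1.76, SE 0.31, adjusted p = 0.00233). Neither the genotype difference on HFD (-0.77, SE 0.28, adjusted p = 0.0963) nor the diet difference in WT (-0.89, SE 0.31, adjusted p = 0.0767) passed the threshold, although the libraries did not overlap in either.

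Esrra, the nuclear receptor that works with PGC-1α, differed by less than its spread between pools in all of these comparisons. On CD its mean was 36.0 ± 5.19 CPM in WT (SD, replicates 1 and 2) and 38.7 ± 9.12 CPM in HoipA-KO mice (SD, n = 3). On HFD the means were 35.3 ± 4.28 CPM and 36.7 ± 2.17 CPM (SD, n = 3). WT CD replicate 3 had 22.8 CPM, the lowest of the 12 libraries. The log2 fold changes were 0.15 for genotype on CD (SE 0.19, adjusted p = 0.567), 0.07 on HFD (SE 0.17, adjusted p = 0.789) and -0.01 for diet in WT (SE 0.19, adjusted p = 0.970).

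Prdm16, the zinc finger protein of brown fat identity, was lower in HoipA-KO mice on HFD. It had 9.90, 7.90 and 9.07 CPM in WT HFD and 5.05, 3.64 and 5.42 CPM in HoipA-KO HFD, with a log2 fold change of -0.91 (SE 0.22, adjusted p = 0.0311). On CD it had 7.24, 5.82 and 5.49 CPM in WT and 5.21, 3.98 and 3.85 CPM in HoipA-KO mice (-0.54, SE 0.24, adjusted p = 0.10). The genotypes did not overlap on either diet, while the HoipA-KO groups overlapped each other. Over 12 libraries the difference on HFD no longer passed (-0.93, SE 0.26, adjusted p = 0.0774), with nearly the same estimate and a larger SE. B230104I21Rik lies on the opposite strand and shares 2206 bases of Prdm16 exons. The libraries were made with a stranded kit, and the strand setting of the counting is not given in the sources used here, so reads of the shared bases cannot be assigned to 1 of the 2 genes.

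Kcnk3, the potassium channel TASK-1 that sets the membrane potential of brown adipocytes, was highest in WT HFD at 40.2, 41.1 and 40.8 CPM. It had 28.1, 19.0 and 10.9 CPM in WT CD, 15.6, 12.2 and 19.2 CPM in HoipA-KO CD, and 30.7, 9.81 and 19.8 CPM in HoipA-KO HFD. All 9 other libraries were below the 3 of WT HFD, and these 9 overlapped between groups. On HFD the log2 fold change in HoipA-KO was -1.01 (SE 0.34, adjusted p = 0.0797), and it passed without HoipA-KO HFD replicate 1, the library at 30.7 CPM. The diet difference in WT was 0.80 (SE 0.39, adjusted p = 0.184).

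Elovl3, the elongase of very long chain fatty acids, lay between 0.267 and 1.96 CPM and passed in none of the 5 comparisons over 11 libraries. It had 0.390, 1.85 and 0.445 CPM in WT CD, 1.96, 1.56 and 0.754 CPM in WT HFD, 0.521, 0.267 and 0.553 CPM in HoipA-KO CD, and 1.11, 0.599 and 1.17 CPM in HoipA-KO HFD. On CD the log2 fold change in HoipA-KO was -1.29 (SE 0.66, adjusted p = 0.147), and without WT CD replicate 2 it was 0.23. The 3 HoipA-KO HFD libraries were above the 3 HoipA-KO CD libraries, with a log2 fold change of 1.10 (SE 0.60, adjusted p = 1).

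Ucp1, the gene that defines brown and beige heat production, was detected above 0.5 CPM in 1 library. WT CD replicate 2 had 13.2 CPM from 607 counts, while WT CD replicates 1 and 3 had 0.0975 and 0.0742 CPM, from 4 counts each. WT HFD had 0.199, 0.500 and 0.251 CPM, HoipA-KO CD 0.120, 0.0178 and 0.246 CPM, and HoipA-KO HFD 0.0743, 0.178 and 0.213 CPM, from 26 counts or fewer in each library. All groups overlapped. The fit over 11 libraries gave a log2 fold change of -5.65 in HoipA-KO on CD (SE 1.49, adjusted p = 0.0156), and over 12 libraries -5.11 (adjusted p = 0.0475). Without WT CD replicate 2, which left replicate 1 as the only WT CD library, it was 0.40, and with WT CD replicates 1 and 3 it was 0.56. The 13.2 CPM of that library therefore set the size and the direction. The diet difference in WT followed the same library, at -4.35 with it (SE 1.40, adjusted p = 0.0636) and 1.70 without it.

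WT CD replicate 2 was also the library with the most epididymal RNA, where Crisp1, a secreted sperm-binding protein, had 12605 CPM and Adam7 2373 CPM. HoipA-KO HFD replicate 1 had 1309 CPM of Crisp1 with 0.0743 CPM of Ucp1. Among genes of brown fat, WT CD replicate 2 was highest of the 12 libraries for Cidea at 19.5 CPM, for Cox8b, a subunit of respiratory complex IV, at 18.7 CPM against 11.1 in WT CD replicate 1, and for Cox7a1, another such subunit named after its values were seen, at 5.41 CPM. It was not highest for the other 7 of the 9 genes, and among 16 genes for fuel use and mitochondria typical of brown fat it was highest for 5 and not for 11. The 3 genes whose levels were most like that of Ucp1 over the 11 libraries were Spint4, Spint5 and Gm26902 (Pearson's r of log2(CPM + 1) 0.996, 0.996 and 0.995), an r that 1 library far above the others in Ucp1 can set. The part of epididymal RNA in the Ucp1 value was not tested.

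**Figure D3:**
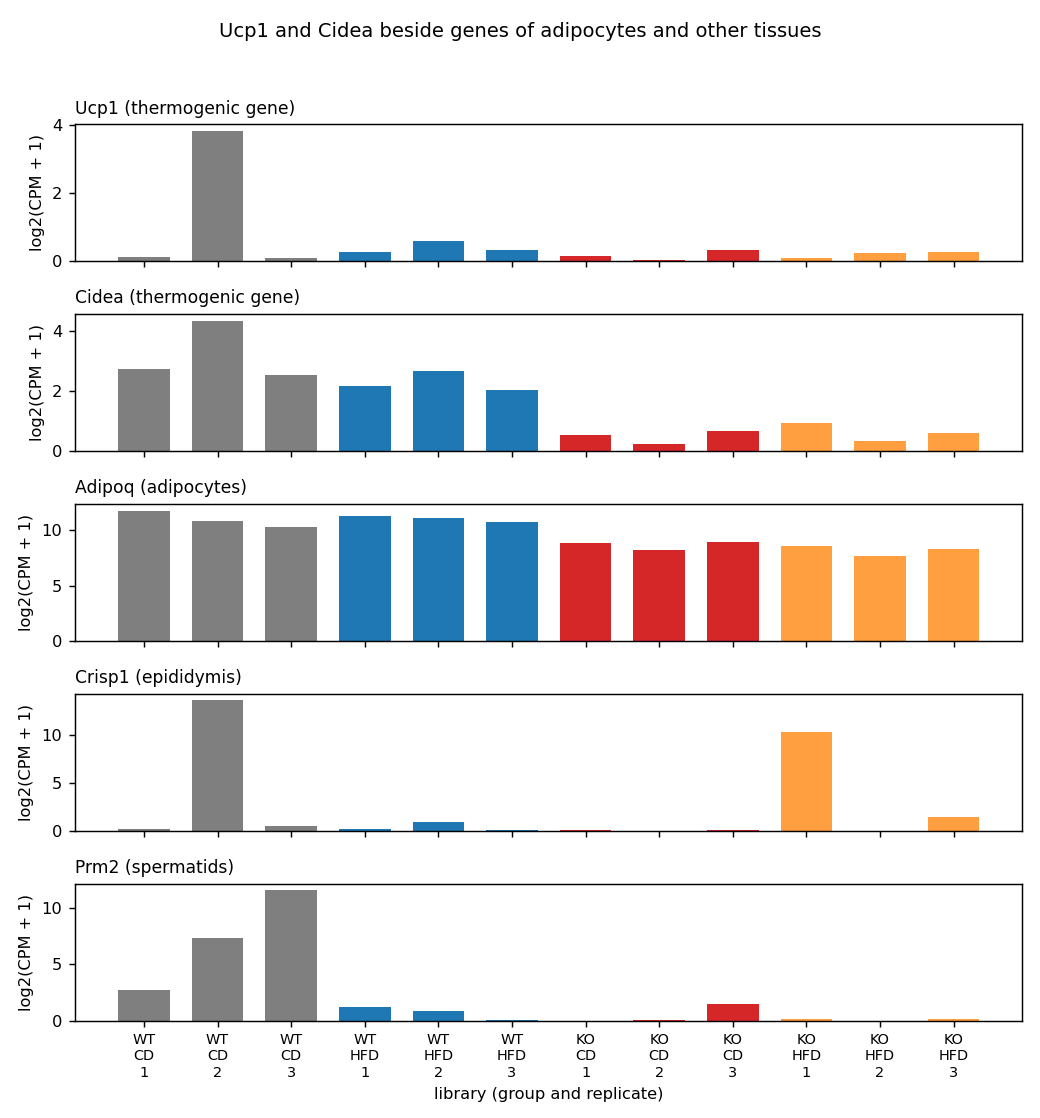
Bars show log2(CPM + 1) of Ucp1, Cidea, the adipocyte gene Adipoq, the epididymal gene Crisp1 and the spermatid gene Prm2 in each of the 12 libraries (KO stands for HoipA-KO). Ucp1 and Crisp1 are both highest in WT CD replicate 2, at 13.2 and 12605 CPM, while Crisp1 is also high in HoipA-KO HFD replicate 1, where Ucp1 has 0.0743 CPM.

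Levels of the 9 genes can be set side by side per length. Per kilobase of exon, the mean level in WT CD replicates 1 and 2 was highest for Cidea at 11.3 CPM per kilobase, followed by Esrra at 8.20 and Kcnk3 at 5.93. In HoipA-KO CD it was highest for Esrra at 8.83 CPM per kilobase, followed by Kcnk3 at 3.94 and Otop1 at 2.02, while Cidea had 0.356 and Ucp1 0.0782. Otop1 stood at 0.391 CPM per kilobase in WT CD and 3.37 in WT HFD. The first rank of Cidea in WT CD came from replicate 2, with 17.4 CPM per kilobase, whereas replicates 1 and 3 had 5.16 and 4.38, below Esrra at 9.04 and 5.19.

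Over the 11 libraries, which share 4 groups and therefore move together wherever groups differ, Kcnk3 and Prdm16 had a Pearson's r of 0.875 on the log2(CPM + 1) scale and Cidea and Ppargc1a 0.832. Dio2 ran against Ppargc1a (r = -0.667), and Otop1 did so as well (r = -0.637). The genes most like Cidea were Acat2, Psat1 and Lyplal1 (r = 0.992, 0.985 and 0.983), and those most like Ppargc1a were 9530026P05Rik, Ppm1k and 1190005I06Rik (0.990, 0.987 and 0.980). Otop1 was most like Dhcr7, Nedd4l and Plekhh2 (0.963, 0.955 and 0.951), and Kcnk3 most like Tspan18, Ccdc88c and Slc13a4 (0.975, 0.968 and 0.965). Prdm16 was most like Zfp366, Gbp9 and Gm37829 (0.965, 0.965 and 0.963), and Esrra most like Dapk3, Abhd17a and Tsen34 (0.953, 0.914 and 0.906). Dio2 had the loosest neighbours, Tmem62, Pira12 and Ubxn4 (0.916, 0.898 and 0.898).

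Genes of mature adipocytes fell in the same libraries. Of 10 such genes, HoipA-KO mice were lower for 9 on CD and for 10 on HFD. The median log2 fold change of the 10 was -1.92 on CD (range -6.47 to -0.53), and on HFD it was -2.04 (range -4.96 to -1.11). Summed, they had 13895 to 49304 CPM in WT CD and 6086 to 9208 CPM in HoipA-KO CD, and 21878 to 29523 CPM in WT HFD and 5486 to 8111 CPM in HoipA-KO HFD, and none was at 0 in any library. WT CD replicate 1 was highest of the 12 libraries for 9 of the 10. Of 9 macrophage genes, 8 were higher on CD and 2 on HFD, and their sum rose from 388 to 592 CPM in WT CD to 8278 to 11717 CPM in HoipA-KO CD. In bulk tissue, fewer adipocytes and less RNA per adipocyte cannot be told apart. Over 12 libraries 8 of the 10 adipocyte genes were lower on CD and 7 on HFD, and 8 of the 9 macrophage genes were higher on CD and 0 on HFD. The range of the adipocyte genes on CD held the log2 fold changes of Cidea, Ppargc1a (-1.76) and Ucp1, and that of Ucp1 was 0.40 without WT CD replicate 2. The same range held Prdm16, Kcnk3 and Elovl3, which did not pass on CD, at -0.54, -0.55 and -1.29, and the estimates of Esrra, Otop1 and Dio2 were above 0. For the genes called on HFD, Cidea at -2.79 was within the range of the adipocyte genes there, and Prdm16 at -0.91 fell less than all 10. The part of cell composition in these differences was not tested.

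Set against the mean of the 10 adipocyte genes in the same library, on the log2(CPM + 1) scale, Otop1 was at -9.66 ± 1.40 (SD, n = 2) in WT CD and at -5.44 ± 0.59 (n = 3) in HoipA-KO CD. Dio2 stood at -9.70 ± 1.15 and -5.41 ± 1.15 in these groups, Esrra at -5.65 ± 0.69 and -3.14 ± 0.22, and Prdm16 at -7.94 ± 0.70 and -6.02 ± 0.44. The means of Ppargc1a, Kcnk3 and Elovl3 rose as well, from -8.075, -6.26 and -9.86 to -6.99, -4.39 and -7.90. For Ucp1 no direction can be read. Its WT CD libraries were at -11.3 and -6.39, and those of HoipA-KO CD lay between these, at -8.46 to -7.89. Ucp1 had at most 0.246 CPM in HoipA-KO CD, so the 1 added to its CPM makes up most of its value there. The adipocyte mean itself fell, from 11.5 and 10.2 in WT CD replicates 1 and 2 to 8.62, 7.91 and 8.76 in HoipA-KO CD. A gene with the same CPM in both groups therefore rises on this scale. Cidea was at -7.30 ± 2.02 in WT CD and -7.96 ± 0.25 in HoipA-KO CD, and on HFD at -8.12 ± 0.35 in WT and -7.44 ± 0.19 in HoipA-KO mice. This pseudocount compresses genes under 1 CPM. With 0.1 in its place, the difference of Cidea between genotypes (HoipA-KO minus WT) was -2.09 instead of -0.66 on CD, and on HFD it was -0.34 instead of 0.68.

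The beta-adrenergic pathway, which lies upstream of these genes, was lower at its receptors. Of 9 tested genes for sympathetic and beta-adrenergic input, 4 were lower and 1 higher in HoipA-KO mice on CD, and 4 lower on HFD (median log2 fold change -0.55 and -0.71, against -0.06 and 0.06 for all genes). Among all genes tested over 11 libraries, 37.7% passed on CD, 18.8% lower and 18.9% higher. On HFD 11.8% passed, 7.62% lower and 4.2% higher. These shares stand beside the counts of this list and of the lists that follow. Adrb3, the receptor of white and brown adipocytes for noradrenaline, had 733, 243 and 225 CPM in WT CD and 9.48, 8.94 and 14.4 CPM in HoipA-KO CD. Its log2 fold change was -5.44 there (adjusted p = 0.000515), and on HFD it was -4.23 (adjusted p = 0.00871). Adrb1 fell by 2.69 on CD and by 2.51 on HFD, and Pde3b, which breaks down cAMP, fell by 2.19 and by 1.90. Adcy3, which makes cAMP, rose by 2.61 on CD (adjusted p = 0.00327). All 4 kept their calls on CD over 12 libraries, where on CD 3 of the 9 were lower and 1 higher, and on HFD 4 were lower. WT CD replicate 1 was highest of the 12 libraries for 7 of the 11 genes listed, tested or not, and is in all of these counts.

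Activators of the brown and beige program were mixed. Of 22 tested, 8 were lower and 4 higher on CD, while HFD had 6 lower and 1 higher, with a median of -0.04 and -0.11. Klf15, a glucocorticoid-responsive factor of fat, fell by 3.00 on CD, the receptors Ppara and Rxrg fell by 2.06 and 2.03, and Fndc5, which encodes the irisin precursor, rose by 2.71. Fndc5 did not pass over 12 libraries (adjusted p = 0.20), where WT CD replicate 3 had 17.0 CPM against 1.93 and 4.02 CPM. Over 12 libraries 6 activators were lower and 3 higher on CD, and on HFD 1 was lower, Zbtb16, named here for that count, while Klf15, Ppara, Rxrg and Fndc5 were among those lost there. Without WT CD replicate 2, 2 were higher on CD and 2 on HFD. Of 17 repressors, 2 were lower and 5 higher on CD, while HFD had 3 lower and 2 higher. Among them Nrip1, a corepressor known to hold down Ucp1 and Cidea, fell by 1.85 on CD, and Ikbke, a kinase of inflamed fat, rose by 2.63. Rbl1 rose by 0.90 (adjusted p = 0.0348), which was lost over 12 libraries (adjusted p = 0.107). Aldh1a1 fell by 2.73 and by 1.54 without WT CD replicate 2. Over 12 libraries 2 repressors were lower and 2 higher on CD, and 1 was lower on HFD, and without WT CD replicate 2 the counts on CD were 5 lower and 2 higher.

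Targets of PGC-1 and ERR were mostly lower on CD. Of 13 tested, 10 were lower and 1 higher in HoipA-KO on CD, and 3 lower on HFD, with a median of -0.72 and -0.50. The electron carrier Cycs fell by 1.09, from 295 and 320 CPM in WT CD replicates 1 and 2 to 133, 145 and 143 CPM in HoipA-KO CD. Idh3a and Cs of the citric acid cycle fell by 0.96 and 0.83, and Cox4i1 of complex IV fell by 0.90. These counts rest on which WT CD libraries were used. WT CD replicate 1 was highest of the 12 libraries for 8 of the 13 genes, and all counts given here include it. Over 12 libraries 2 were lower on CD and none of the 13 on HFD, where WT CD replicate 3 had 113 CPM of Cycs, and with WT CD replicates 1 and 3 again 2 were lower on CD. Without WT CD replicate 2, 9 were lower on CD and 7 on HFD.

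Of 16 genes for fuel use and mitochondria typical of brown fat, 2 were lower and 1 higher on CD, while HFD had 1 lower and 1 higher (median -0.19 and -0.02). Among all genes tested, 37.7% passed on CD and 11.8% on HFD. Cox8b fell by 2.68 (adjusted p = 0.0112) and by 2.25 without WT CD replicate 2. Acot11, a thioesterase induced by cold, rose by 2.67 on CD and on HFD by 1.16. Pank1, of coenzyme A synthesis, fell by 2.99, but WT CD replicate 2 alone had 72.1 CPM, and without it the log2 fold change was -0.29. Over 12 libraries 3 of the 16 were lower and 1 higher on CD and none passed on HFD, and without WT CD replicate 2 the count on HFD was 3 lower and 1 higher. The rise of Acot11 on HFD was among those lost over 12 libraries (adjusted p = 0.0832).

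Beige markers did not move one way either, with 4 of 12 lower and 2 higher on CD and 2 lower and 2 higher on HFD (median -0.24 and 0.04). Tmem26, a surface protein of beige cells, rose by 3.48, from 0.171 and 0.152 CPM in WT CD replicates 1 and 2 to 1.66, 2.36 and 1.27 CPM, and Cd40, which immune cells carry as well, rose by 1.98. Slc36a2, an amino acid transporter of brown and beige adipocytes, fell by 1.66 (adjusted p = 0.0261), which was lost over 12 libraries (adjusted p = 0.0788). Mpzl2 fell by 3.51, and by 0.77 without WT CD replicate 2, where the adjusted p was 0.620. Over 12 libraries 1 of the 12 was lower and 2 higher on CD, and 1 was lower on HFD.

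Heat can also be made without UCP1, through futile cycles of creatine, calcium and lipid. Of 13 tested genes of these cycles, 4 were lower and 4 higher on CD, while HFD had 4 lower and 2 higher (median -0.10 and -0.22). The creatine genes went in both directions. Ckb, a creatine kinase, had 64.4, 66.6 and 55.7 CPM in WT CD and 464, 532 and 537 CPM in HoipA-KO CD, a log2 fold change of 3.01 (adjusted p = 0.000759) and of 1.61 on HFD (adjusted p = 0.0192). Slc6a8, the creatine transporter, rose by 3.47 on CD and on HFD by 1.26, the latter lost over 12 libraries (adjusted p = 0.0689). Gatm, which starts creatine synthesis, rose by 2.81 on CD over 11 libraries, and over 12 it did not pass (adjusted p = 0.845), as WT CD replicate 3 had 74.2 CPM against 3.80 and 5.97 CPM in the other WT CD libraries. Gamt, which completes creatine synthesis and is named here after its values were seen, went from 48.2 and 94.6 CPM in WT CD (replicates 1 and 2) to 21.7, 19.2 and 31.3 CPM in HoipA-KO CD. It fell by 1.53 on CD (adjusted p = 0.00361; by 0.96 without WT CD replicate 2) and by 0.96 on HFD, the latter lost over 12 libraries (adjusted p = 0.191). Alpl, a phosphatase of the creatine cycle, did not pass on either diet (-0.10 and -0.51), and Ckmt2 had no count in any of the 11 libraries. Pck1, which makes glycerol for re-esterification of fatty acids, fell by 3.53 and by 3.14. In WT mice, HFD also raised Ckb by 1.27 and Slc6a8 by 1.90 (adjusted p = 0.0480 and 0.0165), and without WT CD replicate 2 neither passed (adjusted p = 0.161 and 0.0933). Over 12 libraries CD had 3 of the 13 lower and 3 higher, while HFD had 2 lower and 1 higher. Within WT HFD, Ckb had 83.0, 158 and 228 CPM and Slc6a8 had 39.6, 64.2 and 103 CPM (replicates 1 to 3). In the same libraries the macrophage genes summed to 1660, 2979 and 4976 CPM and the adipocyte genes to 29523, 28755 and 21878 CPM. The part of cell composition in the levels of these genes was not tested, and heat was not measured by them.

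Factors that brown fat secretes were higher more often than lower on CD, with 6 of 11 higher and 2 lower, and 1 higher and 3 lower on HFD (median 2.08 and 0.82). Gdf15, a stress hormone, had 0.439, 5.41 and 0.779 CPM in WT CD and 30.0, 33.3 and 34.9 CPM in HoipA-KO CD (log2 fold change 3.52, adjusted p = 0.0180). Without WT CD replicate 2, the library at 5.41 CPM, the log2 fold change was 6.26. Metrnl rose by 3.13 and Pltp, a phospholipid carrier, by 3.07. Nrg4, which brown fat sends to the liver, fell by 3.17 on CD and by 2.91 on HFD. Over 12 libraries the counts on CD were the same, and on HFD none of the 11 was higher and 1 lower. Without WT CD replicate 2, 4 were higher on CD and 4 on HFD. Many cells of inflamed tissue also make Gdf15, Metrnl and Pltp, and the part of the macrophage rise in their levels was not tested.

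**Figure D4:**
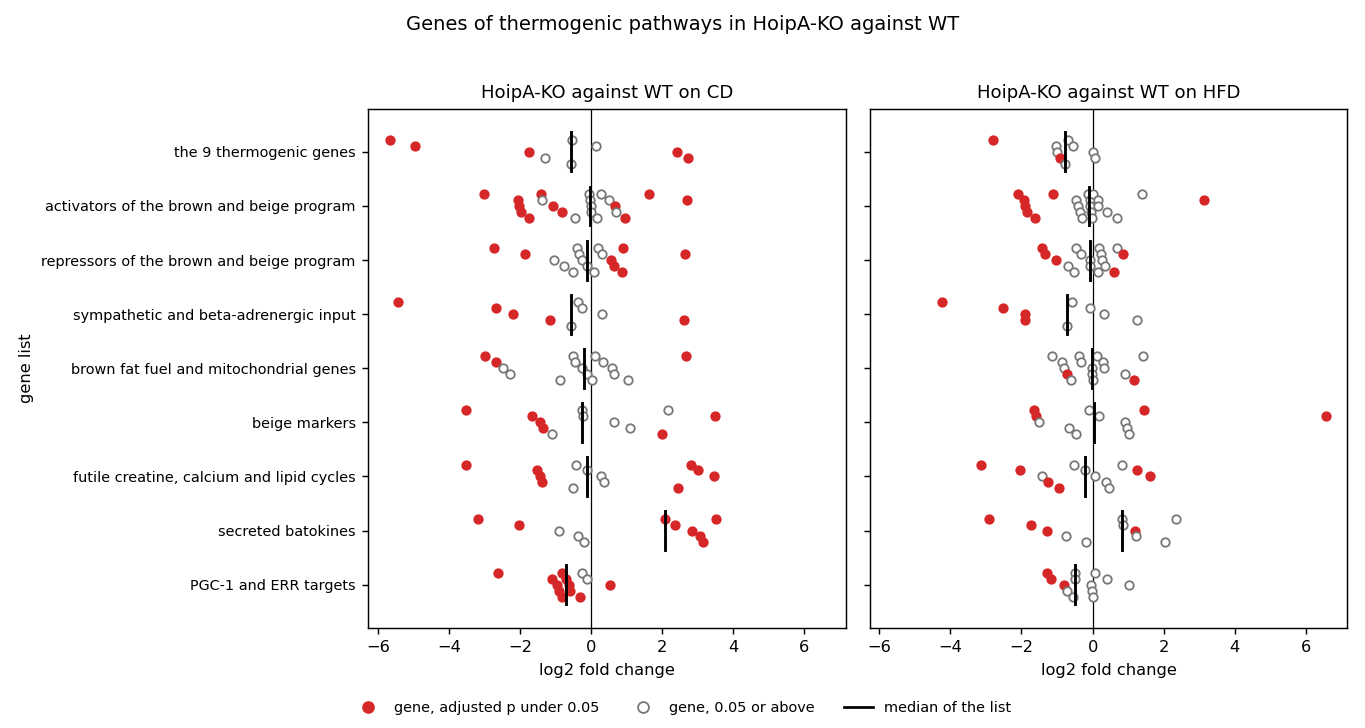
Log2 fold change of every tested gene of 9 lists in HoipA-KO against WT on CD and on HFD, with filled points for an adjusted p under 0.05 and a bar at the median of each list. Secreted factors have the highest median on CD (2.08), and targets of PGC-1 and ERR the lowest (-0.72).

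Of 22 tested paralogs of the 9 genes, 6 were lower and 5 higher on CD, and on HFD 5 were lower, or 3 over 12 libraries (median -0.55 and 0.29). The examples here were named after their values were seen. Ucp2, found in macrophages, rose by 3.14 on CD, from 178, 105 and 122 CPM in WT CD to 1191, 1156 and 1276 CPM in HoipA-KO CD, while Ucp3 fell by 2.03. Cidec, the CIDE protein of white adipocytes, fell by 1.76 on CD and by 2.05 on HFD. The potassium channels Kcnk13 and Kcnk6 rose by 4.53 and 2.80, and the elongase Elovl6 fell by 4.0. Elovl6 had 73.7, 186 and 24.8 CPM in WT CD and 8.12, 8.11 and 7.33 CPM in HoipA-KO CD, so the size of its fall leans on WT CD replicate 2. Elovl2 fell by 7.74, but its level came from WT CD replicates 2 and 3, at 44.0 and 141 CPM against 0.0244 CPM in replicate 1, and without WT CD replicate 2 its log2 fold change was 1.93 (adjusted p = 0.258).

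The positions of the genes are given in GRCm38 with GENCODE M21. Ucp1 lies on chromosome 8 at 83290352 to 83298452, Ppargc1a on chromosome 5 at 51454250 to 51567726, Kcnk3 at 30588170 to 30625271 and Otop1 at 38275972 to 38304217 of the same chromosome. Dio2 lies on chromosome 12 at 90724552 to 90738438, Elovl3 on chromosome 19 at 46131897 to 46135694, Esrra at 6910977 to 6921813 of that chromosome, Prdm16 on chromosome 4 at 154316125 to 154636873 and Cidea on chromosome 18 at 67343604 to 67367785. Values are over all exons of a gene. Besides Prdm16, exons of Cidea, Dio2, Elovl3, Kcnk3 and Esrra share between 10 and 430 bases with a gene on the opposite strand.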

How the data were processed

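Polyadenylated RNA of 12 GWAT pools was sequenced from stranded libraries. The authors trimmed reads with Trim Galore 0.6.7, aligned them with STAR 2.7.10a and estimated counts per gene with Salmon 1.5.2 through nf-core. The estimated counts were deposited unnormalized, in a table of all genes and one of protein-coding genes. The submitters' processing notes name GRCm38 (the methods name a human assembly), and all identifiers are those of mouse genes. Tables of the authors' own DESeq2 comparisons hold fold changes, p-values and CPM of 11 libraries and were not used.

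Rounded counts passed filterByExpr, were scaled by TMM and entered 1 model of the 4 groups over 11 libraries, the choice in the study's own comparisons, in edgeR 4.0.16 (limma 3.58.1, R 4.3.3). Contrasts were tested with the quasi-likelihood test and Benjamini-Hochberg adjustment over 18427 genes (18074 over 12 libraries), called at 0.05, with a prior count of 0.125 for log2 fold changes. The common biological coefficient of variation was 0.394 over 11 libraries and 0.514 over 12. CPM values share 1 TMM scale over all 12 libraries, SD values are between pools, and counts limit precision through counting error only. The script was tested on simulated counts.

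The 9 genes and all lists were chosen with earlier results of these data known. Named from each list were at most 4 genes called in HoipA-KO against WT on CD with the largest absolute log2 fold change and a mean of at least 1 CPM, and for each of the 9 genes with a mean of at least 1 CPM, the 3 genes of highest r. Lists are described by counts and medians with no test of the list. Positions and exon lengths are from GENCODE M21, promoters from RefSeq (GRCm38.p6). Lists covered activators, repressors, input, fuel, beige markers, futile cycles, secreted factors, PGC-1 and ERR targets, paralogs and markers of other cells. Alternatives were other size factors, filters, genes, library choices, a replicate block, the 2 groups alone, DESeq2 1.42.0, a threshold of 0.01 and leaving out each library. Leaving out WT CD replicate 1 or 2 left 1 WT CD library in the fit. Adipocyte genes were also tried without Lep, Retn and Cfd and with a pseudocount of 0.1 in place of 1, and the choice of the latter was made after seeing the data.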

Additional observations from a re-analysis of the deposited data

Results flagged for a closer look

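The genotype effect on Otop1 differed between diets, by -3.12 on the log2 scale (HFD minus CD) in the interaction of edgeR's model over 11 libraries, with an adjusted p of 0.0256. On CD all 3 HoipA-KO libraries lay above the WT libraries, and on HFD the HoipA-KO range of 5.93 to 8.15 CPM reached the WT range of 8.04 to 14.9 CPM. In 22 alternatives the estimate stayed between -3.90 and -2.62, and in 9 of these, 8 that each leave out 1 library and the threshold of 0.01, the adjusted p passed its threshold no longer, with a highest value of 0.0819. This comparison rests on 2 libraries of WT CD, and the part of tissue composition in it was not tested.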

How the results depend on the processing

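Over all alternatives tried, the differences on CD in Cidea (-5.58 to -3.73), Ppargc1a (-2.06 to -1.37) and Otop1 (1.90 to 3.20) kept their direction and stayed past the threshold, and the rise of Otop1 with HFD in WT mice was lost only in a fit of those 2 groups alone (adjusted p = 0.0861), which called 0 genes and 0 of the 9. Prdm16 on HFD was lost in 10 of 23 alternatives and Cidea on HFD in 6. Counts of the 9 genes below moved along with those of all genes. In the main fit 37.7% of 18427 genes passed on CD, 11.8% on HFD, 14.8% for diet in WT and 3.91% for the interaction. Over the alternatives other than leaving out 1 library, 3619 to 8264 genes passed on CD and 185 to 4410 on HFD. For diet in WT 0 to 7046 passed, and for the interaction 2 to 3550. The number of genes tested differed between settings.

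Of the 9 genes, on CD 3 passed at 0.01 and 3 to 5 when 1 library was left out. On HFD 1 passed with library size alone, 1 with no filter, 1 with WT CD replicates 2 and 3 and 1 with replicates 1 and 3, 0 over 12 libraries and 0 at 0.01, 4 by DESeq2, and 0 to 3 without 1 library (0 without WT HFD replicate 1, WT HFD 2, HoipA-KO HFD 2 or HoipA-KO HFD 3). For diet in WT 2 passed with at least 10 counts in every library, 3 with WT CD replicates 2 and 3, 4 by DESeq2 and 1 to 3 without 1 library. For the interaction 2 passed by DESeq2, 0 at 0.01 and 0 to 3 without 1 library.

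Among all genes, 6947 passed on CD, 4208 with the 2 groups alone and 3619 at 0.01, and 5082 to 7723 without 1 library. On HFD 2179 passed, 503 over 12 libraries, 1298 and 672 with WT CD replicates 2 and 3 or 1 and 3, 4410 by DESeq2, 185 at 0.01 and 279 to 3797 without 1 library. For diet in WT 2731 passed, 7046 with WT CD replicates 2 and 3, 4551 by DESeq2, 660 at 0.01 and 1045 to 5985 without 1 library. For diet in HoipA-KO mice 0 passed by edgeR (415 at an unadjusted p under 0.05) and 7 by DESeq2. For the interaction 721 passed, 3550 and 326 with WT CD replicates 2 and 3 or 1 and 3, 2350 by DESeq2, 2 at 0.01 and 1 to 3668 without 1 library, with 1 without WT CD replicate 2 and 3668 without WT CD replicate 1.

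The deviations from group means of 15 same-numbered pairs had r from -0.37 to 0.50 (median 0.05), with 6 over 0.1. Those of 30 other pairs had r from -0.51 to 0.43 (median -0.003), with 8 over 0.1. The ranges overlap, so they cannot decide whether samples of the same number belong together. A fit with the replicate number as a block called 1502 genes for diet in WT and 377 for the interaction, did not call Ucp1 on CD and called Kcnk3 on HFD.

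Estimates changed sign for Ucp1 on CD (0.56 with WT CD replicates 1 and 3, 0.40 without replicate 2, and -6.67 to 0.40 without 1 library) and for diet in WT (1.88 and 1.70, and -5.31 to 1.70), and for Elovl3 on CD (0.10 and 0.23, and -2.01 to 0.23). Others, none past the threshold, were Elovl3 for diet in WT (-0.35 without WT CD replicate 1, and up to 1.87 without another), Kcnk3 on CD (0.0946 with WT CD replicates 2 and 3), Dio2 on HFD (-0.004 with protein-coding genes, -0.47 to 0.60 without 1 library), and Esrra on CD (-0.14 to 0.30 without 1 library), on HFD (-0.0191 to 0.14) and for diet in WT (0.0341 by library size, 0.16 over 12 libraries, 0.39 and 0.18 with WT CD replicates 2 and 3 or 1 and 3, and -0.15 to 0.16 without 1 library). The cause was not tested. Ucp1 could not be fitted with at least 10 counts in every library.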

Other observations

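Cited1, a marker of beige cells named after its values were seen, was 6.56 higher on the log2 scale in HoipA-KO HFD than in WT HFD (adjusted p = 0.0235 over 11 libraries by edgeR, 0.123 over 12). HoipA-KO HFD replicate 1, the library with 1309 CPM of the epididymal gene Crisp1, had 39.1 CPM of Cited1, while replicates 2 and 3 had 0.622 and 2.38 CPM and the 3 WT HFD libraries 0.133 to 0.154 CPM. WT CD replicate 3, the library with germ cell transcripts, had 13.9 CPM against 0.0975 and 0.0651 CPM in the other WT CD libraries. HoipA-KO HFD replicate 1 was also high for the muscle genes Myh11 and Ckm, likewise named after their values were seen. It had 1448 and 39.3 CPM of them, against 53.6 and 0.133 CPM in replicate 2 and 72.2 and 0.160 CPM in replicate 3. The part of these tissues in the Cited1 values was not tested.

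Perm1, a PGC-1 target of muscle and brown fat also named after its values were seen, was lower by 2.62 on CD (adjusted p = 0.0208 by edgeR), at 0.268 and 0.977 CPM in WT CD replicates 1 and 2 and 0.10, 0.124 and 0.0614 CPM in HoipA-KO CD, and over 12 libraries the adjusted p was 0.0750.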
